A study of Mus musculus with 3 samples.

Results

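Epiblast stem cells of the mouse line E3 that had undergone reversion to an embryonic stem cell-like state (E3R) were compared with unreverted E3 epiblast stem cells, and each culture was measured on 1 bead array. Every probe of these 2 arrays that carried a gene symbol entered: 23978 of 25697 probes, standing for 16593 genes. E3R cells were grown on gelatin in KSR medium with PD0325901 (1 µM, inhibits MEK), CHIR99021 (3 µM, inhibits GSK3) and the cytokine LIF (1000 U), and were harvested on the dish. E3 cells were grown on inactivated CF1 mouse embryonic fibroblasts in KSR medium with 5 ng/ml FGF2 and were lifted with collagenase IV, which the labels say carried over few feeder cells. Both cultures had the hybrid background of the E3 line, neither had any further treatment, and the single line cannot stand for other lines. State, medium, substrate, feeder layer and harvest differed together, so their contributions cannot be told apart. The series holds 3 arrays in all; the remaining one, of CGR8 embryonic stem cells in the medium of E3R cells, shared the normalization and the choice of probes. With 1 array a side there is no replicate check, no test and no p-value, and sizes describe these 2 arrays.

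Embryonic stem cells correspond to the epiblast of the blastocyst before implantation, a state called naive, and epiblast stem cells to the epiblast after implantation, called primed. Both are pluripotent and express Oct4. Naive cells are held by LIF, through STAT3, and by a network of transcription factors that includes Esrrb and the Klf factors, and inhibition of MEK and of GSK3 stabilizes them. Primed cells depend on FGF acting through ERK and on Activin or Nodal, form a flat epithelium, and express early lineage genes such as Otx2 and Fgf5.

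Signals are given as log2 of the background-corrected, quantile-normalized intensity. On the E3R array 9994 probes (38.9%) were detected, against 10791 (42.0%) on the E3 array, where detected means a detection p-value under 0.01. By the probe used for each gene, 584 genes were detected in E3R cells alone, 1064 in E3 cells alone and 6385 in both. An undetected probe was set to the lowest signal of any detected probe on its array (log2 5.06 in E3R and 4.87 in E3 cells) or kept its own signal where that was higher, and the difference is then a bound, written "at least". A difference is E3R minus E3. Its bead standard error, with a median of 0.13, covers the beads of these arrays only. Of 8033 genes detected on at least 1 array, 7726 had a value, and their median difference was −0.02 with quartiles of −0.57 and 0.56. A gene detected on 1 array alone got no value where its signal did not exceed the level set for the other array. With the higher floor in E3R cells, this left out dim genes detected in E3 cells alone. Counts and medians below do not include them.

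The 5 markers of the comparison separated the arrays. Esrrb, an orphan nuclear receptor of the naive network, had raw intensities of 3312.1 in E3R and 110.2 in E3 cells, which is log2 11.85 against 5.41 and a difference of 6.44 (bead standard error 0.13). Zfp42, a zinc finger gene used as a marker of naive cells, had raw intensities of 2169.8 in E3R and 101.4 in E3 cells and a log2 difference of 6.13 (bead standard error 0.17). Dppa4, a chromatin protein of pluripotent cells, had 4193.9 in E3R and 149.9 in E3 cells, with a difference of 5.87 (bead standard error 0.12), or 4.16 with the mean of its probes. All 3 were detected on both arrays, and each was dim in E3 cells. Egr1, an immediate early transcription factor induced through ERK, had a raw intensity of 86.5 in E3R cells, not detected, against 4497.4 in E3 cells, a difference of at least −6.92. Otx2, a homeobox factor of the primed epiblast, kept a clear signal in E3R cells: 298.1 against 2172.8 in E3 cells, log2 8.05 against 10.97 and a difference of −2.92 (bead standard error 0.10). The markers came with a comparison that was chosen with earlier results of these data known. Their separation of the arrays is therefore no independent check of the labels.

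Promoter sequences from RefSeq (build GRCm38.p6) are printed for 3 genes that were far apart between the arrays, as the 250 bases before the annotated start, read 5′ to 3′ along the gene's strand. Zfp42, also called Rex1, lies on the minus strand at chr8:43307010-43307259. It is shown because its window holds an exact copy of the octamer ATTTGCAT, the textbook site of Oct4 and other POU factors, in capitals, whose first base lies at position −186.
Zfp42: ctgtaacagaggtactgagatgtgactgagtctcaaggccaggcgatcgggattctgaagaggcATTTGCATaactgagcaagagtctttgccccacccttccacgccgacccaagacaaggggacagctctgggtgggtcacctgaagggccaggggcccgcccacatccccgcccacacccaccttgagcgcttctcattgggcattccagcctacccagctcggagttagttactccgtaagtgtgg
Laptm5, at chr4:130913066-130913315 on the plus strand, and Dazl, at chr17:50293621-50293870 on the minus strand, are shown for their contrast in CG dinucleotides, which are in capitals.
Laptm5: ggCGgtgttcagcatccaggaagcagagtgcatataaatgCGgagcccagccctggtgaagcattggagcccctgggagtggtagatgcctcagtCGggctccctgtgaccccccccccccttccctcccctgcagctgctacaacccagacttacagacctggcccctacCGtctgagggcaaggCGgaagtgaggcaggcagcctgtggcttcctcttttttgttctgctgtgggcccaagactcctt
Dazl: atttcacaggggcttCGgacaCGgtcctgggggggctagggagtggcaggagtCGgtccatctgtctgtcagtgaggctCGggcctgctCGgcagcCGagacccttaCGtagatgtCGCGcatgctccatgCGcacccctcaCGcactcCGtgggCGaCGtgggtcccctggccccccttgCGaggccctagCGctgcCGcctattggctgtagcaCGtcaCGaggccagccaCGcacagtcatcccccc
The Laptm5 stretch holds 5 CG dinucleotides and the Dazl stretch 20, although both genes were detected in E3R cells alone.

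**Figure D1:**
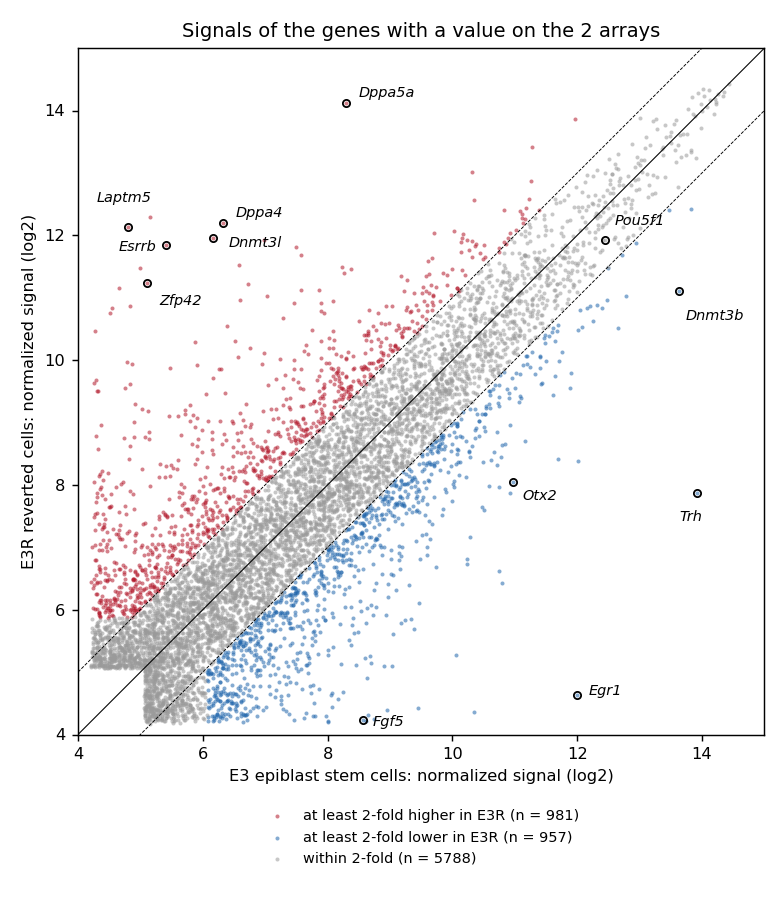
Normalized log2 signal of each gene in E3R reverted cells (vertical axis) against E3 epiblast stem cells (horizontal axis), for 7726 genes with a value; dashed lines mark 2-fold. Esrrb, Zfp42, Dppa4, Laptm5 and Dnmt3l stand at the upper left, and Egr1, Trh and Fgf5 at the lower right, while Pou5f1 lies near the diagonal.

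Over all genes, 981 (12.7%) were higher in E3R cells by 2-fold or more and 957 (12.4%) lower, in sum 25.1%; "higher" and "lower" in counts below mean past 2-fold. These are the backgrounds against which the gene groups below are read. Both directions were about equally frequent at 2-fold, but not further out: past 8-fold lay 88 higher and 38 lower genes, and past 16-fold 36 higher and 7 lower genes. Bounds made up 15 of those 36 and 3 of those 7. Scaling the arrays to a common median in place of quantile normalization gave 744 higher and 1331 lower genes and moved the median of all genes to −0.20, so that higher genes made up 35.9% of calls, against 50.6%. Genes of middling brightness differed most often: 15.01% were higher and 16.33% lower among 2652 genes with a mean log2 signal of 6 to 8, against 1.70% and 2.84% of the 176 brightest genes, above log2 12. Every one of the 1556 genes detected on both arrays and at least 2-fold apart differed by more than 3 bead standard errors, but so did 2498 of 4829 genes within 2-fold, so bead error alone does not set the 2-fold genes apart.

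Among naive regulators and markers, a list of 28 genes on the array, 24 had a value. Of these, 22 were higher in E3R cells by 2-fold or more (7 as bounds) and 0 lower, with a median of 4.16. The list was chosen with earlier results of these data known and holds several of the largest differences. Its count and median therefore describe the list only. Ooep, an oocyte and early embryo gene, had log2 12.30 in E3R and 5.15 in E3 cells. Dppa5a, an RNA-binding protein gene, had log2 14.12 in E3R and 8.29 in E3 cells. Tcl1, a co-activator of the kinase Akt, had log2 10.47 in E3R and 4.27, undetected, in E3 cells. All 3 were far higher in E3R cells, and of these Tcl1 alone was undetected in E3 cells. The Klf factors differed in how far they were silent in E3 cells. Klf4 had log2 8.08 in E3R cells and was undetected in E3 cells (4.40). Klf5 had 11.81 in E3R and 7.50 in E3 cells, and Klf2 had 10.48 in E3R and 7.75 in E3 cells, so both kept a clear signal in E3 cells. The T-box factor Tbx3 (9.68 in E3R cells) and the nuclear receptor Nr5a2 (8.05 in E3R cells) were undetected in E3 cells, at 4.29 and 4.26. Sox15 and Nanog, the members within 2-fold, had differences of 0.84 and 0.97. Nr0b1, Prdm14, Spic and Morc1 were detected in neither culture.

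Fbxo15, a target of Oct4 and Sox2, had log2 11.22 in E3R and 6.73 in E3 cells. Mybl2, a cell cycle transcription factor, had 11.50 in E3R and 8.23 in E3 cells, but its probes spread from 0.89 to 3.27. Khdc3, a gene of the oocyte and early embryo, had 9.50 in E3R and was undetected in E3 cells (4.31). Dppa3, a germline and naive marker, was dim in both, with 7.50 in E3R and 5.43 in E3 cells. The size of the difference therefore varied widely within the list, from 0.84 for Sox15 to 7.15 for Ooep.

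**Figure D2:**
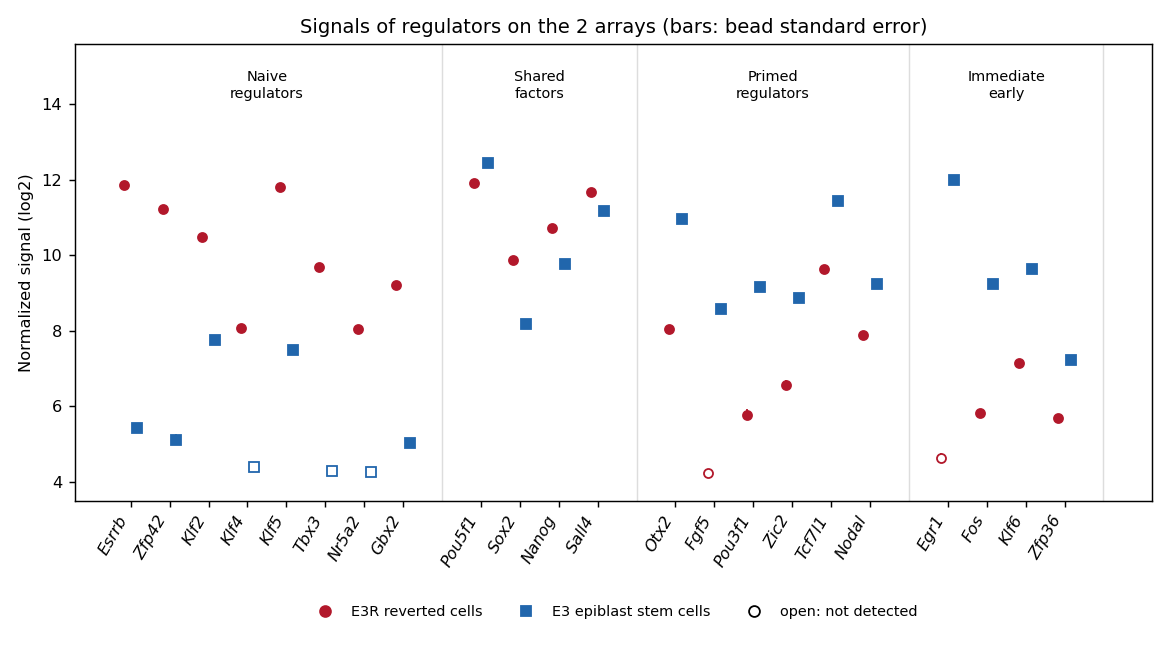
Normalized log2 signal of 22 regulators in E3R reverted cells (circles) and E3 epiblast stem cells (squares); open symbols were not detected, and bead standard errors are mostly smaller than the symbols. The naive regulators shown are higher in E3R cells, and the primed regulators shown are higher in E3 cells. Egr1, Fos, Klf6 and Zfp36 are taken from the 7 lower of 18 measured immediate early genes, of which 10 were within 2-fold and 1 higher. Pou5f1, Nanog and Sall4 lie within 2-fold.

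Of 13 measured genes shared by both states, 8 were within 2-fold. Pou5f1, which encodes Oct4, had log2 11.92 in E3R and 12.45 in E3 cells. Sall4, a zinc finger factor of the core network, had a difference of 0.52. Utf1, a chromatin protein of pluripotent cells, was lower, with 8.52 in E3R and 10.67 in E3 cells. Lin28a, which blocks maturation of let-7 microRNAs, had 7.47 in E3R and 9.13 in E3 cells, and Zscan10, a partner of Oct4 and Sox2, had 7.53 in E3R and 8.87 in E3 cells. Sox2 (9.88 in E3R and 8.17 in E3 cells) was higher, by 1.72, or by 0.85 with the mean of its probes. The list thus lay on either side, and Pou5f1, Sall4 and Sox2, at the centre of the network, were detected on both arrays.

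Of 20 measured primed genes, 16 were lower in E3R cells (5 as bounds) and 1 higher, with a median of −2.41. The list was chosen with earlier results of these data known and includes large differences such as those of Cldn6 and Pim2. Its count and median therefore describe the list only. Fgf5 had log2 4.23, undetected, in E3R cells and 8.57 in E3 cells. Pou3f1, the POU factor Oct6, had 5.78 in E3R and 9.17 in E3 cells. Zic2, a zinc finger factor of the primed epiblast, had 6.57 in E3R and 8.87 in E3 cells. Both transcription factors were still detected in E3R cells, as Otx2 was. Gsc, a homeobox gene of the organizer, was the 1 higher member, at 7.59 in E3R and 6.28 in E3 cells. Sall2, a zinc finger gene, was undetected in E3R cells (4.58) and had 6.86 in E3 cells. Gsc, Sall2 and Fgf15 were within 2-fold without background correction.

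The FGF ligands divided. Fgf4, which naive cells secrete, had log2 8.53 in E3R and 5.98 in E3 cells, a difference of 2.55. Fgf5, Fgf8 and Fgf15, expressed in the epiblast after implantation or in its derivatives, were undetected in E3R cells, and their differences were at least −3.51, −2.94 and −1.81. Fgf13, an intracellular member of the family, had 5.26 in E3R and 7.69 in E3 cells. The only FGF receptor with a value, Fgfr1, had a difference of −0.70, and the adaptors Grb2 and Shc1 and the phosphatase Ptpn11 lay between −0.05 and 0.08. Of 11 measured members 2 were at least 2-fold higher and 4 lower.

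Of 18 measured immediate early genes, which respond within minutes to growth factor signalling, 7 were lower in E3R cells and 1 higher. Besides Egr1, Fos had log2 5.83 in E3R and 9.24 in E3 cells, and the zinc finger gene Klf6 had 7.14 in E3R and 9.64 in E3 cells. Zfp36, which binds and destabilizes mRNAs, had 5.69 in E3R and 7.23 in E3 cells, under 2-fold without background correction. Jun, Junb and Jund, partners of Fos, lay between −0.91 and −0.24, within 2-fold. Csrnp1 was the 1 higher member, with 8.44 in E3R and 6.80 in E3 cells. The list was thus uneven, with Egr1 far from all others and 10 members within 2-fold.

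Among 15 measured feedback genes of ERK signalling, 10 were within 2-fold, 3 lower and 2 higher. The ERK phosphatase Dusp6 had log2 8.35 in E3R and 9.59 in E3 cells, a difference of −1.25 (−0.98 with the mean of its probes), and Dusp4 had 4.99, undetected, in E3R and 7.69 in E3 cells. The inhibitors Spry4 and Spred1 had differences of −0.93 and −0.94. Dusp6 and Spry4 therefore kept signal in E3R cells. Etv5, an ETS factor, was higher at 8.68 in E3R and 7.55 in E3 cells (under 2-fold without background correction and with median scaling), while its relative Etv4 had a difference of −0.55. Lgals3, which encodes galectin 3, had 9.92 in E3R and 5.90 in E3 cells.

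In the LIF pathway, 4 of 12 measured genes were higher in E3R cells and 1 lower. Stat3, the transducer of LIF, had log2 8.72 in E3R and 7.47 in E3 cells (a difference of 1.26, or 0.75 with the mean of its probes), and its feedback inhibitor Socs3 had 10.79 in E3R and 7.89 in E3 cells. The kinase gene Pim1 was detected in E3R cells alone (6.11, with 4.45 in E3 cells). Its relative Pim2, of the primed list, was undetected in E3R cells (4.40) with 8.95 in E3 cells, a difference of at least −3.89, or −2.53 with the mean of its probes, and Pim3 had a difference of 0.59. Cish, another inhibitor of cytokine signalling, was lower, with 5.08 in E3R and 6.78 in E3 cells. Without background correction both Pim1 and Cish were within 2-fold. The shared receptor subunit gp130, Il6st, and the kinase Jak2 had differences of −0.01 and 0.32.

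Of 26 measured Wnt pathway genes 18 were within 2-fold, 3 higher and 5 lower. Tcf7l1, also called Tcf3, which represses naive genes in the absence of Wnt signalling, had log2 9.64 in E3R and 11.43 in E3 cells. The Wnt inhibitor gene Sfrp1 had 8.84 in E3R and 6.15 in E3 cells, the receptor gene Fzd10 had 7.96 in E3R and 5.70 in E3 cells, and the Wnt deacylase gene Notum had 7.28 in E3R cells and was undetected in E3 cells. The β-catenin gene Ctnnb1 had a difference of 0.97. Axin2 and Sp5, common targets of Wnt signalling, had differences of −0.60 and −0.05.

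In the Nodal and Activin pathway, 5 (27.8%) of 18 measured genes were lower in E3R cells and 2 (11.1%) higher, against 12.4% and 12.7% of all genes. Nodal had log2 7.90 in E3R and 9.24 in E3 cells. Foxh1, the partner of Smad2 and Smad4 at Nodal targets, had 5.64 in E3R and 7.77 in E3 cells. Lefty1, a secreted inhibitor of Nodal, had 8.39 in E3R and 12.01 in E3 cells, whereas its neighbour Lefty2 had a difference of −0.11. The receptor gene Tgfbr1 was lower by 1.21, and Smad2, Smad3 and Smad4 lay between −0.58 and 0.46. Gdf3, a ligand of the same family, was higher, with 9.96 in E3R and 8.72 in E3 cells. Among 12 measured genes of the BMP pathway, 3 were higher and 0 lower: Id1, a target of BMP signalling, had 6.44 in E3R and 4.98 in E3 cells, and Bmp4 and its antagonist Chrd had differences of 1.07 and 1.06, all from dim signals and all under 2-fold without background correction and with a normexp offset of 50. Id2 and Id3 were within 2-fold, at −0.27 and −0.01.

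Of 6 measured Eph receptors and ephrins, which signal between touching cells, 2 were lower in E3R cells and 0 higher. Efna5, a membrane ligand of Eph receptors, had log2 5.78 in E3R and 8.62 in E3 cells, and the receptor gene Epha1 was undetected in E3R cells (4.29) with 7.77 in E3 cells. Of 13 measured genes of the Notch and Hippo pathways 3 (23.1%) were higher, 3 (23.1%) lower and 7 within 2-fold, against 12.7% and 12.4% of all genes higher and lower. Notch3 had 5.78 in E3R and 7.72 in E3 cells, whereas Notch4, a relative best known from endothelium, had 8.72 in E3R and 6.37 in E3 cells. These paralogs thus lay on opposite sides. Tead2, a transcription factor of the Hippo pathway, had 9.98 in E3R and 11.50 in E3 cells.

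Of 23 measured genes of epithelial junctions and keratins, 10 were at least 2-fold lower in E3R cells (4 as bounds) and 0 higher. The claudin gene Cldn6 had log2 6.42 in E3R and 10.80 in E3 cells. Krt8 and Krt18, which encode partner keratins, had 6.10 and 4.67 in E3R cells, against 9.47 and 8.07 in E3 cells. Esrp1, a splicing regulator of epithelia, had 5.10 in E3R and 9.03 in E3 cells. Cdh1, which encodes E-cadherin, had a difference of 0.37, and Cldn4 and Cldn7 had 0.05 and −0.45, so the list was not lower throughout.

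Other adhesion genes were more often higher, with 6 of 16 measured at least 2-fold higher in E3R cells and 3 lower. The tetraspanin gene Cd9 had log2 11.46 in E3R and 8.37 in E3 cells. Icam1, an immunoglobulin-type adhesion receptor, had 9.85 in E3R and 7.46 in E3 cells, and Pecam1, a surface marker of embryonic stem cells, had 8.76 in E3R and 5.08 in E3 cells. The integrin gene Itgb4 was detected in E3R cells alone (7.90, with 4.83 in E3 cells). Cd59a, an inhibitor of complement, was lower, with 7.01 in E3R and 9.60 in E3 cells. Among 22 measured matrix genes 4 (18.2%) were higher and 3 (13.6%) lower, shares near those of all genes, and the median was 0.04. Of the higher members, the laminin gene Lama1 had 8.76 in E3R and 4.89 in E3 cells, the dystroglycan gene Dag1 had 9.56 in E3R and 7.29 in E3 cells, Agrn, which encodes agrin, had 12.07 in E3R and 10.03 in E3 cells, and the nidogen gene Nid1 was detected in E3R cells alone. Of the lower members, the proteoglycan gene Bgn was undetected in E3R cells (4.62) with 6.77 in E3 cells, and the collagen gene Col4a1 and the metalloproteinase gene Mmp2 had differences of −1.22 and −1.53. Bgn and Col4a1 were within 2-fold without background correction.

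Markers of other cell types were mostly undetected. Of a short list of 11 defining fibroblast markers on the array 0 were detected in E3R cells and 2 in E3 cells, Thy1 (4.66 in E3R and 7.74 in E3 cells) and Dcn (4.30 in E3R and 6.43 in E3 cells). The summed linear signal of these markers was 239.9 in E3R and 499.3 in E3 cells, against 366.9 and 321.7 if each had stood at the detection floor of its array. Col1a1, Col1a2 and Col3a1, the main fibroblast collagens, were undetected on both arrays. Of a longer list of 23 genes expressed in fibroblasts, which other cells express too, 4 were detected in E3R cells and 7 in E3 cells. The sums of this list were 1091.7 in E3R and 1094.1 in E3 cells, against 767.3 and 672.6 at the detection floors. Of the 6 list members with a value 3 were lower and 1 higher. Besides Thy1 and Dcn, the smooth muscle actin gene Acta2 was lower, with 5.97 in E3R and 7.18 in E3 cells (−0.41 with the mean of its probes). The higher member was Sfrp1, described with the Wnt pathway. The E3R sum includes Sfrp1, so the close sums do not show equal fibroblast signal. Dcn and Acta2 were within 2-fold without background correction. In bulk RNA, fewer cells of a type and less RNA per cell cannot be told apart, and the part of other cells in any difference was not tested.

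Of 23 streak and endoderm markers, 4 were detected in E3R cells and 9 in E3 cells. Lhx1, Cer1, Fgf8, Kdr and Apoa1 were detected in E3 cells alone. A difference could be given for 6 markers, 4 of them higher and 1 lower, with a median of 1.20. With detection at p under 0.05 the median was 0.17, so the list showed no clear lean to E3R cells. Besides Gsc, the higher members were Hhex, a homeobox gene of anterior endoderm, with log2 7.33 in E3R and 6.04 in E3 cells, and the primitive endoderm genes Gata6 (7.62 in E3R and 5.72 in E3 cells) and Dab2 (6.26 in E3R and 5.15 in E3 cells). Fgf8 was the lower one. Without background correction Gata6 alone of the 4 higher members was still past 2-fold, and Dab2 had a difference of 0.59 with the mean of its probes. Eomes, Mixl1, Foxa2 and Sox17, defining factors of streak and endoderm, were undetected on both arrays. Of 15 trophoblast markers 3 were detected on each array, and the 3 with a value were higher. Krt7, detected in E3 cells alone, had no value. Tfap2c, also a germline factor, had 11.52 in E3R and 6.58 in E3 cells. Elf3, an ETS factor of epithelia, had 8.62 in E3R and 5.90 in E3 cells. The X-linked homeobox gene Rhox9 had 6.11 in E3R and 4.37, undetected, in E3 cells. Rhox9 was within 2-fold without background correction. Cdx2, Elf5 and Gata3, which define trophoblast, were undetected on both. Of 14 neural markers 0 were detected in E3R and 2 in E3 cells, Nes and Map2. Of 14 blood and endothelial markers 2 were detected on each array, Tek and Laptm5 in E3R cells and Kdr and Lmo2 in E3 cells.

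Genes of the DNA methylation machinery differed in both directions, with 5 of 15 measured genes at least 2-fold higher in E3R cells and 3 lower. Dnmt3l, a catalytically inactive cofactor of de novo methylation, had log2 11.96 in E3R and 6.17 in E3 cells. Dnmt3b, a de novo methyltransferase, had 11.10 in E3R and 13.63 in E3 cells, the opposite direction. Dnmt1 and Uhrf1, which copy methylation after replication, had 9.85 and 12.34 in E3R cells, against 8.41 and 11.12 in E3 cells. Tdg and Mbd1, a glycosylase of demethylation and a reader of methylated DNA, had differences of −1.01 and −1.13, both under 2-fold without background correction. Uhrf1 was under 2-fold with median scaling.

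Germ cell genes are often methylated at their promoters in somatic cells. Of 41 on the array, 24 had a value, and 17 of these were at least 2-fold higher in E3R cells and 1 lower, with a median of 1.99. Of the higher genes 11 were bounds, and a gene detected in E3R cells alone could only be higher, so the count describes the list. Tuba3a, a testis tubulin, had log2 10.75 in E3R and 4.52, undetected, in E3 cells, and its close relative Tuba3b had 8.92 in E3R and 5.87 in E3 cells. Dazl, an RNA-binding protein of germ cells, had 8.57 in E3R and 4.32, undetected, in E3 cells. Tex19.1, which acts against retrotransposons, had 9.86 in E3R and 6.26 in E3 cells. Tex19.1 was thus detected in both cultures, unlike Dazl. Xlr4a and Rhox5, of gene clusters on the X chromosome, had 11.16 and 11.48 in E3R cells, against 4.66 (undetected) and 4.99 in E3 cells. Probes of near-identical family members such as the Tuba3 and Xlr genes can bind each other's transcripts, and this was not tested.

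Among 51 measured Polycomb genes and other histone modifiers, 39 were within 2-fold, 8 (15.7%) higher and 4 (7.8%) lower. These shares lay near the 12.7% and 12.4% of all genes, and the median was −0.05. Kat6b, a histone acetyltransferase, had log2 11.13 in E3R and 7.57 in E3 cells. The Polycomb repressive complex 2 subunits Suz12 and Mtf2 had 11.91 and 9.50 in E3R cells, against 10.32 and 7.86 in E3 cells, while the catalytic subunit Ezh2 had a difference of 0.28. Carm1, an arginine methyltransferase, was lower, with 6.03 in E3R and 8.63 in E3 cells. Hdac6, a cytoplasmic deacetylase, had 7.46 in E3R and 5.30 in E3 cells.

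Of 20 measured imprinted genes, 6 were lower in E3R cells and 1 higher, with a median of −0.75. Grb10, an adaptor that restrains insulin signalling, had log2 8.41 in E3R and 11.69 in E3 cells, and the growth factor Igf2 had 5.45 in E3R and 7.07 in E3 cells. Nnat was detected in E3 cells alone. Igf2 and Nnat were within 2-fold without background correction. Peg3, Mest, Ndn and Peg10 lay between −0.34 and −0.04.

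Cell cycle regulators had a median of −0.16 over 30 measured genes, 5 higher and 5 lower (16.7% each, against 12.7% and 12.4% of all genes). The D-type cyclins, which partner Cdk4 and Cdk6, differed in direction: Ccnd1 had log2 9.14 in E3R and 10.40 in E3 cells, Ccnd2 was undetected in E3R cells (4.29) with 6.87 in E3 cells, and Ccnd3 had 11.59 in E3R and 9.61 in E3 cells. The transcription factor E2f1 had 10.18 in E3R and 8.70 in E3 cells. Cdkn1c, an inhibitor of cyclin-dependent kinases, had 6.66 in E3R and 9.16 in E3 cells. Ccnd2 was within 2-fold without background correction. Mdm2, which degrades p53, was higher by 1.39. Among 21 measured apoptosis regulators 5 (23.8%) were lower, 1 (4.8%) higher and 15 within 2-fold. Bcl2l11, which encodes the pro-apoptotic protein Bim, had 6.57 in E3R and 7.89 in E3 cells (−0.65 with the mean of its probes). The other lower members, Bok, Bad, Casp8 and Birc2, lay between −1.31 and −1.03, and all 5 were within 2-fold without background correction, as were all but Bad with the mean of a gene's probes. Apaf1, of the apoptosome, was higher by 1.22.

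**Figure D3:**
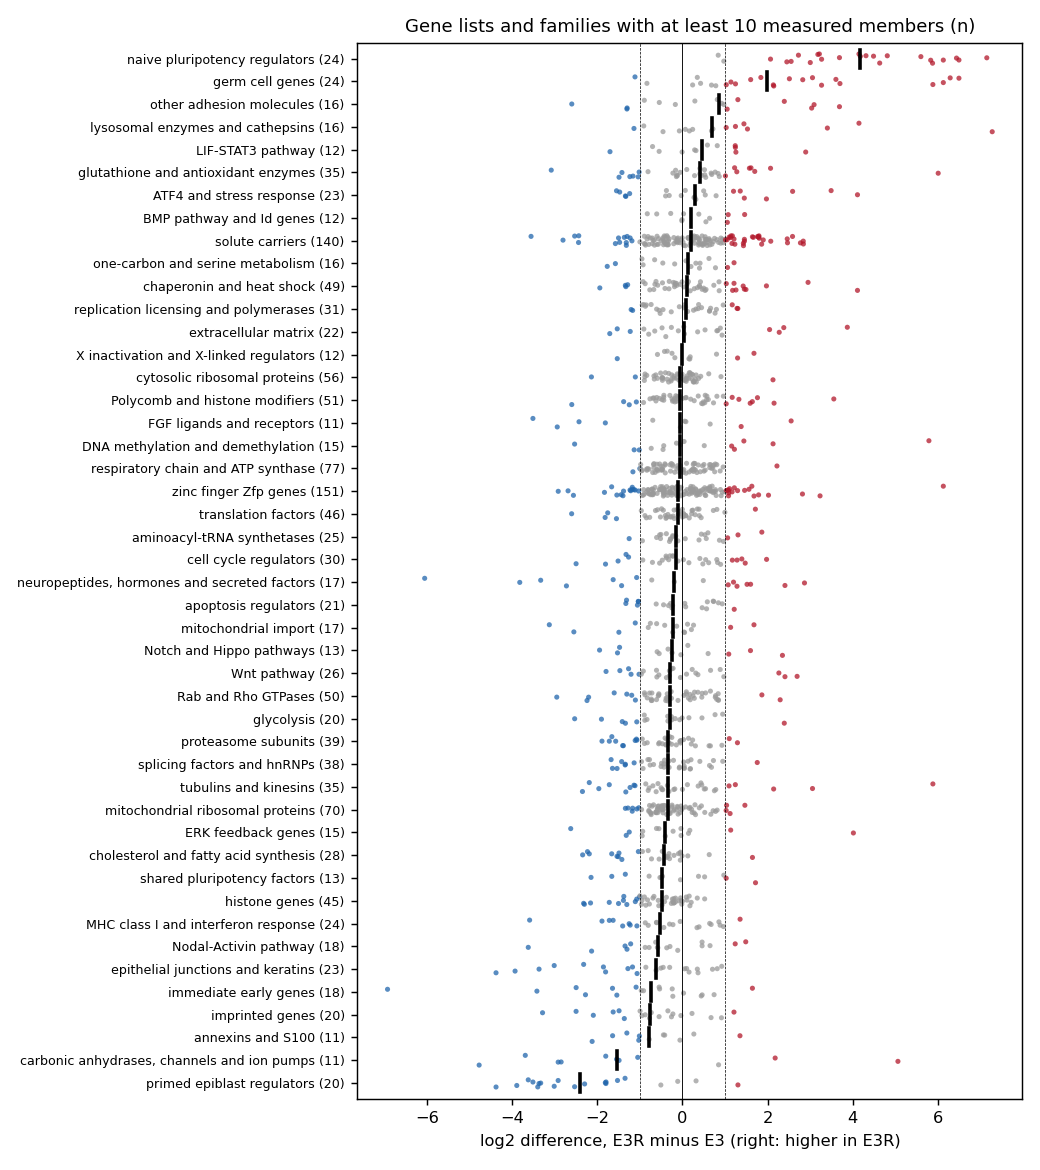
Log2 difference (E3R minus E3) of each measured member of the lists and families with at least 10 measured members; red points are at least 2-fold higher in E3R cells, blue points at least 2-fold lower, and black bars are medians. Naive regulators (median 4.16) lie at the top and primed regulators (−2.41) at the bottom, while respiratory chain and ribosomal genes cluster near 0. The lists and families were chosen with earlier results of these data known.

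Cholesterol and fatty acid synthesis and glycolysis both had more lower than higher genes, while one-carbon and serine metabolism had as many of each. Of 28 measured genes of cholesterol and fatty acid synthesis, 9 were at least 2-fold lower in E3R cells and 1 higher, with a median of −0.43. Dhcr7, which makes cholesterol in the last step of one route, had log2 6.43 in E3R and 8.78 in E3 cells, and the farnesyl pyrophosphate synthase gene Fdps had 10.97 in E3R and 12.48 in E3 cells. Srebf2, the transcription factor of the pathway, had a difference of 0.63, and its escort Scap was the higher gene, with 6.79 in E3R and 5.14 in E3 cells, though under 2-fold without background correction. In glycolysis 5 of 20 measured genes were lower and 1 higher: the lactate transporter gene Slc16a3 was undetected in E3R cells (4.73) with 7.59 in E3 cells, Aldoc had 7.80 in E3R and 9.70 in E3 cells, and the phosphofructokinase gene Pfkp had 10.47 in E3R and 8.08 in E3 cells. Of 16 measured genes of one-carbon and serine metabolism 2 (12.5%) were higher and 2 (12.5%) lower, shares near the 12.7% and 12.4% of all genes. Psat1, an enzyme of serine synthesis, had 11.02 in E3R and 12.78 in E3 cells.

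Glutathione and antioxidant genes spread widely, 8 of 35 measured being higher and 7 lower. Gstp2 had log2 10.87 in E3R and 4.83, undetected, in E3 cells, while Gstp1, a near relative, had a difference of −0.22; binding of a probe to both was not tested. Gstm5 had 5.13 in E3R and 8.21 in E3 cells. The mitochondrial dismutase gene Sod2 had 11.93 in E3R and 10.23 in E3 cells. Of 23 stress response genes 7 were higher and 5 lower: Hspb1, a small heat shock protein, had 11.69 in E3R and 7.58 in E3 cells, Nupr1, a stress-induced nuclear protein, had 10.05 in E3R and 6.56 in E3 cells, and Ddit3, which encodes CHOP, had 8.73 in E3R and 6.15 in E3 cells. Atf4, the factor upstream of Ddit3, had a difference of −0.38, and its target Chac1 was lower by 1.55, so these 2 targets of Atf4 did not share a direction.

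Genes of ion and water transport included several of the largest differences. Of 11 measured carbonic anhydrases, channels and pumps 8 were at least 2-fold lower and 2 higher, a list assembled with its extreme members in view. Car14, Car2 and Car4, which interconvert carbon dioxide and bicarbonate, had log2 5.28, 5.64 and 4.25 in E3R cells, against 10.05, 8.49 and 8.75 in E3 cells, the Car4 value in E3R cells being undetected. The potassium channel gene Kcnk1 had 6.40 in E3R and 9.31 in E3 cells. Aqp3, a water and glycerol channel, went the other way, with 9.93 in E3R and 4.86, undetected, in E3 cells. The sodium pump subunit gene Atp1b1 had 10.19 in E3R and 8.02 in E3 cells. Among 140 measured solute carriers 29 were higher and 14 lower: the nucleoside transporter gene Slc29a1 and the riboflavin transporter gene Slc52a3 both had differences of 2.84, the zinc transporter gene Slc39a4 had 10.01 in E3R and 7.24 in E3 cells, and another zinc transporter gene, Slc39a8, was undetected in E3R cells (4.21) with 8.62 in E3 cells.

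Secreted factors were split, 7 of 17 measured being higher and 7 lower. Trh, the precursor of thyrotropin-releasing hormone, had log2 7.87 in E3R and 13.92 in E3 cells, where its raw intensity was 18810.3. Igfbp3, a binding protein of insulin-like growth factors, had 5.12 in E3R and 8.45 in E3 cells, and Igfbp5 was undetected in E3R cells (4.51) with 7.79 in E3 cells. Apoe, an apolipoprotein, and Pdgfa, a growth factor, went the other way, with 10.95 and 10.30 in E3R cells, against 8.08 and 7.90 in E3 cells. For Igfbp4 the 2 probes disagreed, from −0.57 to 1.60.

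Of 24 measured genes of MHC class I and the interferon response 8 were at least 2-fold lower in E3R cells and 1 higher. Gbp2, an interferon-induced GTPase, was undetected in E3R cells (4.31) with log2 8.65 in E3 cells. The proteasome activators Psme1 and Psme2 and the immunoproteasome subunits Psmb10 and Psmb9 had 8.84, 6.51, 7.66 and 4.99 (undetected) in E3R cells, against 10.72, 7.91, 9.37 and 6.13 in E3 cells. Psme2 and Psmb9 were within 2-fold without background correction. The MHC class I gene H2-K1 had a difference of −0.61. Of the fibroblast markers, Thy1 and Dcn were detected in E3 cells alone, as given above, and their part in these differences was not tested.

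Families of basic cell function differed in how many members lay past 2-fold. Of 56 measured cytosolic ribosomal protein genes 53 were within 2-fold, and of 77 genes of the respiratory chain and ATP synthase 74 were. With scaling to a common median the ribosomal median was −0.55, against −0.05 with quantile normalization, a larger shift than that of all genes. Exceptions were Rpl7a, with log2 10.51 in E3R and 12.65 in E3 cells, and Cox6b2, a cytochrome oxidase subunit known from testis, with 9.18 in E3R and 6.96 in E3 cells. Among 45 measured histone genes 11 (24.4%) were lower and 0 higher. The linker histone H1f10 had 7.10 in E3R and 9.42 in E3 cells, and H4c12, undetected in E3R cells (4.92), had 7.37 in E3 cells. Histone genes are near-identical in sequence, and binding of a probe to several of them was not tested. Of 38 splicing factor genes 7 were lower and 1 higher: Srsf6 had 8.63 in E3R and 10.31 in E3 cells, and Hnrnpk had 11.34 in E3R and 9.58 in E3 cells. Of 39 proteasome subunits and activators 9 (23.1%) were lower and 2 higher: besides the immunoproteasome genes given above, the lower ones included the core subunit gene Psmb7, with 10.83 in E3R and 12.39 in E3 cells. Of 49 chaperonin and heat shock genes 10 (20.4%) were higher, Hspb1 among them, and 4 (8.2%) lower. In mitochondrial import, Timm21 had 7.16 in E3R and 10.28 in E3 cells.

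Among 16 measured lysosomal genes 7 (43.8%) were higher in E3R cells and 1 lower. Laptm5, a lysosomal membrane protein best known from blood cells, had log2 12.14 in E3R and 4.80, undetected, in E3 cells, although the blood marker Ptprc was undetected on both arrays. The β-mannosidase gene Manba had 10.54 in E3R and 6.39 in E3 cells, and the β-galactosidase gene Glb1 had 10.68 in E3R and 7.28 in E3 cells. Lamp1 and Lamp2, the main membrane glycoproteins of lysosomes, were higher by 1.44 and 1.25, the second of these by 0.72 with the mean of its probes. The cathepsin gene Ctsz was the lower member, at −1.14, and lost its 2-fold size without background correction or with the mean of its probes.

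Further genes among the 25 with the largest differences in each direction belonged to few of these groups. Gab1, an adaptor of receptor tyrosine kinases, had log2 11.92 in E3R and 6.98 in E3 cells, a 30.6-fold difference. Lrrc34 was 21.3-fold higher, with 10.29 in E3R and 5.87 in E3 cells. Rbmxl2, a testis-expressed relative of Rbmx, had 9.97 in E3R and 4.78, undetected, in E3 cells, while X-linked Rbmx itself, an RNA-binding protein of splicing, had 4.43, undetected, in E3R and 9.45 in E3 cells. This pair was opposite in both cultures, but each gene had 1 probe, and binding of a probe to both transcripts was not tested. The Rbmx probe was also undetected in CGR8 cells (4.68). Dpp4, a membrane peptidase, was at least 24.7-fold higher, with 9.50 in E3R cells and no detection in E3 cells. On the lower side, Chst1, a sulfotransferase, was undetected in E3R cells (4.36) with 10.34 in E3 cells. Nabp2, a single-strand DNA-binding protein, had 5.69 in E3R and 9.39 in E3 cells, and Hmgn5, a nucleosome-binding protein, had 5.85 in E3R and 9.34 in E3 cells.

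By chromosome, genes lower in E3R cells were most frequent on the X. Of 265 X-linked genes with a value 56 (21.1%) were lower and 28 (10.6%) higher, with a median of −0.31, against 901 (12.1%) lower and 952 (12.8%) higher of 7455 autosomal genes, with a median of −0.02. The median log2 signal of 192 X-linked genes detected on both arrays was 7.22 in E3R and 7.66 in E3 cells, whereas that of 6189 autosomal genes was 7.65 in both. Over the alternative processing settings the lower share was 10.9% to 26.0% on the X, against 5.90% to 16.6% on autosomes, and higher on the X in each of them. Lower X-linked genes lay in all 8 successive eighths of the chromosome's measured genes, 3 to 13 in each, although the median of the last eighth was 0.09. Xist, the RNA that silences an X chromosome, was undetected on both arrays, and Y-linked Eif2s3y had 8.42 on both. Y-linked Usp9y was detected in E3R cells alone, at 6.01, with 4.31 in E3 cells, a difference under 2-fold without background correction. X-linked genes with large differences lay on both sides: Rhox5 and Xlr4a were higher, and Rbmx, Hmgn5 and Fgf13 lower. Eras, a Ras-like gene of pluripotent cells, had 7.69 in E3R and 9.60 in E3 cells, and Renbp, which binds renin, had 10.91 in E3R and 7.89 in E3 cells. On chromosome 5, 91 of 514 genes (17.7%) were higher and 46 (8.90%) lower, with a median of 0.13.

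**Figure D4:**
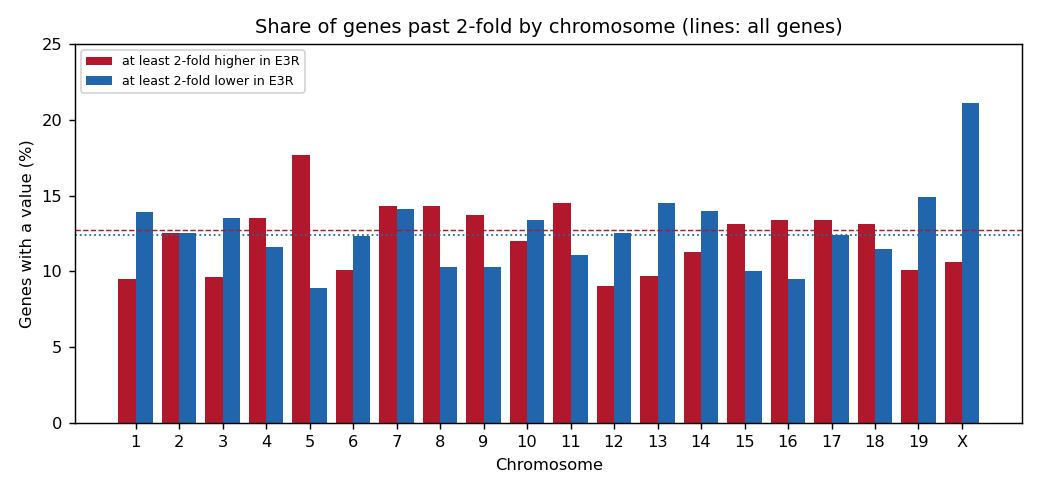
Share of genes with a value that were at least 2-fold higher (red) or lower (blue) in E3R cells, by chromosome; lines are the shares over all genes (12.7% and 12.4%). The lower share reaches 21.1% on the X chromosome, and the higher share 17.7% on chromosome 5.

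Promoter windows differed in CG content by the size of the difference. RefSeq windows of 250 bases before to 50 after the start were found for 6334 genes with a value. The median number of CG dinucleotides per window was 13 for genes at least 8-fold higher in E3R cells (92 windows) and 16 for genes at least 8-fold lower (43 windows), against 21 for genes within 2-fold (6085 windows). Over all 32851 windows of the table, which include silent genes, the median was 7. Windows of a gene overlap, and no test was made. The windows of Rhox5, Xlr4a and Laptm5, all far higher in E3R cells, held 5, 8 and 9 CG dinucleotides, whereas that of Dazl, also higher, held 28. Those of Trh and Fgf5, lower in E3R cells, held 28 and 29. The octamer ATTTGCAT, searched on both strands, was present in 1.74% of all windows and in 1.28% of those of genes with a value, the Zfp42 window among them. By size of difference its share ran from 0.621% (1 of 161 windows, 4- to 8-fold lower) to 3.26% (3 of 92 windows, at least 8-fold higher), from very few windows.

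**Figure D5:**
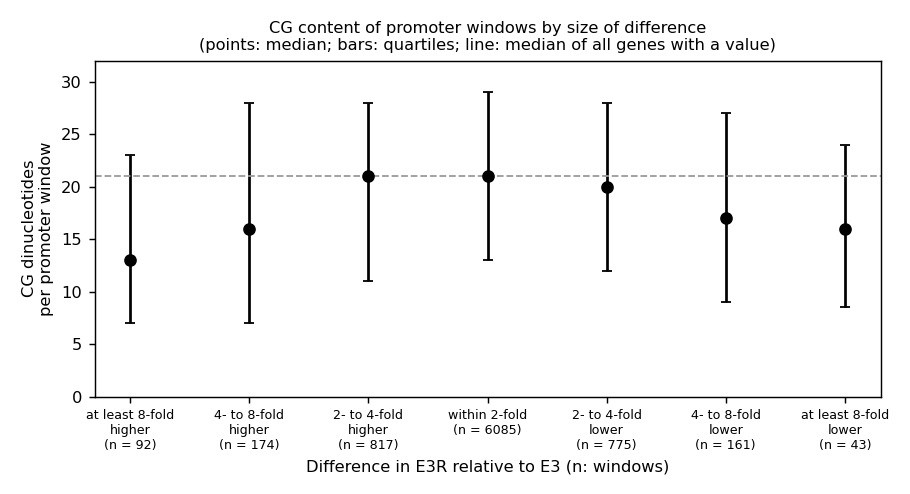
CG dinucleotides per promoter window of 300 bases, for genes grouped by their difference between E3R and E3 cells; points are medians, bars the quartiles over windows, and the line the median over all genes with a value (21). The median is 13 at 8-fold higher and 16 at 8-fold lower, against 21 within 2-fold.

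Different probes of a gene did not always give one answer. In 1629 genes with several probes detected on both arrays the median spread between probes was 0.53 on the log2 scale, and in 358 genes it passed 1. In 5 genes (Dmwd, Ift172, Med25, Smc1a and Vars) probes lay past 2-fold in opposite directions. For Smc1a, an X-linked cohesin subunit, 4 detected probes ran from −1.70 to 1.95. Terf2ip, a telomere protein, ran from −2.75 to 0.64, with a mean of −0.62, and the kinesin gene Kif1b from −2.35 to 0.49.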

How the data were processed

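Per array, the authors deposited for 25697 probes an intensity, the bead standard error and a detection p-value. Per the labels' protocols, 400 ng of RNA underwent in vitro transcription for 12 h with Cy3 as the dye. BeadStudio is the tool named in the submitters' processing notes. Intensities as deposited had no background subtracted: their lowest values were 66.5 on the E3R and 70.5 on the E3 array, and their medians 85.3 and 89.2. The authors' table of processed intensity values, whose normalization the sources used here do not give, served as an alternative only.

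Raw intensities of all 3 arrays were normalized with limma 3.58.1 (neqc, background from detection p-values, offset 16, quantile normalization) in R 4.3.3; differences and counts were computed with pandas 2.3.3 and numpy 2.4.6 in Python 3.11.15 and drawn with matplotlib 3.10.9. The normalization and the calls were also run on a simulated pair: the E3 array, and a copy with bead noise and 200 bright probes changed by known folds. No probe changed its detection there, so bounds were not tested. Far fewer probes were changed than differed between the real arrays. A GRCm38.p6 gene table gave current symbols, by gene identifier, for 23962 probes, and 1719 probes without a symbol were left out. Of the 4777 genes with several probes, each takes its brightest probe, by mean over the 3 arrays. Genes passing 2-fold were counted on unrounded values. Depth has no counterpart on arrays, and 1 array a group limits the precision.

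The comparison, 37 gene lists (985 of 1104 entries matched, some genes in several lists) and 20 symbol families were chosen with earlier results of these data known, and the patterns of the ribosomal, GTPase, chaperone and solute carrier families were narrowed after values were seen, to drop genes of other function. The named genes are the 5 markers, members of a list or family, the 25 largest differences in each direction, the 10 brightest genes detected on 1 array only in each direction and the 10 genes whose probes differed most. Outside that rule, Renbp, Eras, Usp9y, Dmwd and Ift172 were named after their values were seen. The marker T was not analysed here. Alternatives were no background correction, an offset of 50, scaling to a common median, normalization of the 2 arrays alone, the authors' processed values, detection at p under 0.05 or on both arrays, the mean of a gene's detected probes, probes in place of genes, and a threshold of 3-fold.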

Additional observations from a re-analysis of the deposited data

How the results depend on the processing

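Without background correction 553 genes were at least 2-fold higher in E3R cells and 469 lower, with a normexp offset of 50, 618 were lower, and at 3-fold 427 were higher and 332 lower; all of these genes were also called by the values reported. Under the other alternatives the counts stayed within 1.5 times the reported 981 and 957. Of the 227 named genes with a value, 185 were past 2-fold; of these, 34 fell inside 2-fold without background correction, 20 with an offset of 50, 7 with scaling to a common median, 19 with the mean of a gene's detected probes and 0 with the authors' processed values, and the fold moved by over 1.5 times in 99, 59, 0, 32 and 56 of the genes past 2-fold. Of the named genes within 2-fold, 8 passed it with the authors' processed values, 3 with scaling to a common median and 1 with detection at p under 0.05. Among the 19, the mean of the probes reversed Dmwd to −0.17, Ift172 to −0.11, Med25 to −0.46 and Smc1a to −0.04. Shrinkage without background correction and with a larger offset follows from the constant that both leave in dim signals; the cause of the other shifts was not tested. The median of the naive list ran from 3.03 to 4.40 and that of the primed list from −2.51 to −1.74 over the alternatives. No paired analysis was possible because each group has 1 array. Near the detection floors, of log2 5.06 in E3R and 4.87 in E3 cells, differences are bounds or cannot be measured.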
